A study of Mus musculus with 43 samples.

Results

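Epididymal white adipose tissue of high-fat-fed (HFD) male mice held more RNA of the cell division programme than that of standard-diet (SD) mice, and tissue of mice given the highest dose of SZ-A on the same high-fat diet held less of it than HFD tissue. The programme was followed through 41 genes taken by symbol from a fixed list out of 56748 genes in the deposited table of gene counts. The list was chosen with earlier results of these data known, so its counts are not those of an unselected list. Of the 41 genes, 16 act in DNA replication during S phase and 25 in mitosis, with Mcm5 and Mki67 as the marker of each side. All 41 passed the filter on low counts, together with 20218 genes of the table in all.

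SZ-A is a preparation of Ramulus Mori (Sangzhi) alkaloids, from mulberry twig. In dose order, the high-fat groups were HFD alone (60% fat; 10 libraries) and the same 60% fat diet with SZ-A at 200 mg/kg/day (9 libraries), 400 mg/kg/day (8 libraries) and 600 mg/kg/day (9 libraries). The reference diet was SD (10% fat; 7 libraries). Every SZ-A group was also on the high-fat diet, and no group received SZ-A on SD. All mice were male, and no strain, age or duration is stated in the labels. The labels call the libraries of a group replicate biosamples without naming the animals, so a p-value reflects how far these libraries spread.

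A cell that divides first copies its DNA and then separates the copies. In S phase the MCM helicase, loaded at origins by Cdc6 and Cdt1, unwinds DNA, Pcna clamps the polymerases to it, and Rrm2, Tyms and Tk1 supply nucleotides; E2F factors drive transcription of many of these genes. Mitotic genes are repressed by the DREAM complex in resting cells and are switched on later than the S phase genes, largely through Foxm1 complexes. Their products build the spindle, attach chromosomes to it and time the exit from mitosis. In obese adipose tissue, dividing cells are known to include macrophages, preadipocytes and endothelial cells, whereas mature adipocytes rarely divide.

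Some promoters of each side carry the letters that textbooks associate with these regulators. The 6 shown were picked as examples among genes with matches, and that of Cdk1 holds both kinds. E2F letters stood in 6 of 13 replication genes, so the examples do not stand for every gene of their side. RefSeq promoter windows of 300 bases (250 before to 50 after the annotated start, build GRCm38.p6) were found by symbol for 33 of the 41 genes, 13 replication and 20 mitotic. Each is written 5′ to 3′ along the gene. Capitals mark matches on either strand to the E2F letters TTTCCCGC, TTTCGCGC, TTTGCCGC or TTTGGCGC and to the cell cycle homology region (CHR) letters TTTGAA or TTCGAA. In Mcm5 and Mcm6 a match on each strand overlaps the other, and they form 1 capital run.
Mcm5 (chr8:75109259-75109558, plus strand): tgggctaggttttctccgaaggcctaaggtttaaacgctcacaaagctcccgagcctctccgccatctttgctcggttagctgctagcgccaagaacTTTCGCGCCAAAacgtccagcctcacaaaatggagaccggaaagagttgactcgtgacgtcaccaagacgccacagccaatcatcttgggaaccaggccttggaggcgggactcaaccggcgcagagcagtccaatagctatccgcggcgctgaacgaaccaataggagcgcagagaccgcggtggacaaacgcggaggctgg
Mcm6 (chr1:128359656-128359955, minus strand): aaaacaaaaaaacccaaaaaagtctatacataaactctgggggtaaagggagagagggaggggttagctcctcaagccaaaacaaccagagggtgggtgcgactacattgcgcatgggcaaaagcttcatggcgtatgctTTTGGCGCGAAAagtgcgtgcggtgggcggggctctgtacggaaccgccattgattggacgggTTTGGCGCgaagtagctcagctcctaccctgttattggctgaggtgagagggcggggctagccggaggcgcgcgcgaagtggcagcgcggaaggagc
Mcm3 (chr1:20820263-20820562, minus strand): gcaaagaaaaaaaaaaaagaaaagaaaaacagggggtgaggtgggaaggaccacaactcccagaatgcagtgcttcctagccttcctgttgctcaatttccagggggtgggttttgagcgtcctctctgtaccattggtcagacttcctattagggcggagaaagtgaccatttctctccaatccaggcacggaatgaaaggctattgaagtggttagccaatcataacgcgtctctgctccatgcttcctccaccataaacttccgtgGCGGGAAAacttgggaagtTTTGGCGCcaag
Mki67 (chr7:135716330-135716629, minus strand): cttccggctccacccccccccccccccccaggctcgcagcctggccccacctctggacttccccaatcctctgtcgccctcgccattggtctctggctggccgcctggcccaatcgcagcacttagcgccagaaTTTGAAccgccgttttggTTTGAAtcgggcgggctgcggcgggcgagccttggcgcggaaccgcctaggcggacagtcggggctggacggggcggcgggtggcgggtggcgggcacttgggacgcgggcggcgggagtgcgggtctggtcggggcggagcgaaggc
Cdk1 (chr10:69352863-69353162, minus strand): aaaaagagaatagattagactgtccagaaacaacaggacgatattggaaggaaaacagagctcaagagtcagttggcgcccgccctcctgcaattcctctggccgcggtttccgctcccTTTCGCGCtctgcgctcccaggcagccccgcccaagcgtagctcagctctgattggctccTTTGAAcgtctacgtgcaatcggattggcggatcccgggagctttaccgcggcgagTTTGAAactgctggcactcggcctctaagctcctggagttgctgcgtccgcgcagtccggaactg
Ccnb2 (chr9:70421505-70421804, minus strand): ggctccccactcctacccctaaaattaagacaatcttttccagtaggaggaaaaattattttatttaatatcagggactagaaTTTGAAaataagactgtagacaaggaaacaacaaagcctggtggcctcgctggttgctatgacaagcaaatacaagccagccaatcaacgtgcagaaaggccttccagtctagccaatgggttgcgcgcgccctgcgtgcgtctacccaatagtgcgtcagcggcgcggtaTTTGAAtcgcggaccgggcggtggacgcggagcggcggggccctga

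Counts are of genes with a match in at least 1 of their windows. E2F letters stood in 6 of 13 replication genes (46.2%) and 1 of 20 mitotic genes (5.0%), against 2.6% of 27025 genes with windows of the same length. CHR letters stood in 2 of 13 replication genes (15.4%) and 16 of 20 mitotic genes (80.0%), against 21.7% of all 27025. The CCAAT box, searched on both strands and not in capitals above, was in 7 of 13 (53.8%) and 17 of 20 (85.0%), against 41.1% of all. CHR and CCAAT letters occurred together in a window of 2 of 13 replication genes (15.4%) and 15 of 20 mitotic genes (75.0%), against 8.61% of all. The Mki67 window held 2 CHR and 3 CCAAT matches, and the Mcm5 window 2 overlapping E2F and 3 CCAAT matches. The Cdk1 window held both kinds, 1 E2F and 2 CHR matches. A match describes these letters only; binding of a factor was not measured.

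Total counts per library were 32.7 to 44.3 (in units of 1e6), with a median of 37.6. The labels name no batch, yet small noncoding RNA genes took unequal shares of the counts and split the libraries into a set of 22 (0.00319% to 0.00642%) and a set of 21 (0.00992% to 0.0228%). HFD had 5 and 5 libraries in the sets, SZ-A 200 had 5 and 4, SZ-A 400 had 5 and 3, SZ-A 600 had 5 and 4, and SD had 2 and 5. HFD library 8 stood apart from the other HFD libraries, and 4 libraries (SZ-A 400 libraries 3 and 6, SZ-A 600 library 6 and SD library 4) held transcripts of ciliated and duct epithelium at a summed level of 940 CPM (counts scaled to 1e6 per library) or more, against at most 60.1 CPM in the others. Among those 4, SZ-A 400 library 6 had by far the highest epithelial sum, 27860 CPM. The 16 mature adipocyte markers summed to at least 6105 CPM in every library, with a median of 47758 CPM. Markers of the labelled tissue were thus present throughout, but at unequal levels, and the lowest sum was in the SZ-A 400 group.

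Between the diets, 39 of the 41 genes were higher in HFD than in SD tissue, 14 of 16 replication genes and 25 of 25 mitotic genes, where 18.4% of all 20218 genes tested were higher (edgeR's quasi-likelihood test with Benjamini-Hochberg adjustment, adjusted p under 0.05, which is the rule for every call below). The median log2 fold change was 1.41 over the replication genes and 1.98 over the mitotic genes, against −0.05 over all genes tested. The folds of called genes were 1.60 to 4.90 for replication and 2.38 to 6.69 for mitosis. In bulk tissue, more dividing cells and more of these RNAs per cell cannot be told apart.

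Mki67, which coats mitotic chromosomes and marks cycling cells, had a lowest, median and highest level of 5.45, 74.3 and 93.7 CPM in the 10 HFD libraries, against 5.73, 9.18 and 22.3 CPM in the 7 SD libraries. HFD library 8 lay below every SD library and HFD library 9, at 18.9 CPM, lay within the SD range, while the other 8 HFD libraries were above it. Its log2 fold change was 2.44 (SE 0.56, adjusted p = 0.00123), 5.42-fold. Top2a, which untangles sister chromatids and is the other gene of chromosome structure, had a log2 fold change of 2.18 (SE 0.52, adjusted p = 0.00174).

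Among the helicase subunits, Mcm5 stood at 3.0, 31.7 and 40.8 CPM (lowest, median, highest) in HFD libraries, against 3.39, 4.8 and 9.19 CPM in SD libraries. All HFD libraries but library 8 were above the highest SD library. Its log2 fold change of 2.29 (SE 0.45, adjusted p = 3.87e-04) was the highest of the 6 subunits, of which 5 were called higher. The exception was Mcm7, with 24.6, 32.2 and 39.9 CPM in HFD libraries against 25.3, 30.6 and 38.0 CPM in SD libraries, ranges that overlapped almost entirely. Mcm7 had a log2 difference of 0.09 (SE 0.11, adjusted p = 0.551), although its product belongs to the same hexamer as the other 5.

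The licensing and fork genes were all called higher, 4 of 4, with a median log2 fold change of 1.49. Gins2, a subunit of the GINS complex that activates the helicase, was at 4.27, 9.13 and 14.9 CPM in HFD libraries, against 2.13, 3.74 and 4.57 CPM in SD libraries. In 9 of 10 HFD libraries it was above the highest SD library (log2 fold change 1.39, SE 0.28, adjusted p = 4.17e-04). Cdc6, which helps load the helicase, had the lowest fold of the group at 0.79 (log2, SE 0.23, adjusted p = 0.00959).

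All 3 nucleotide supply genes were higher, with a median log2 fold change of 1.78. Tyms, which makes thymidylate, was at 4.42, 8.41 and 12.0 CPM in HFD libraries and at 2.21, 3.49 and 5.34 CPM in SD libraries (log2 fold change 1.19, SE 0.27, adjusted p = 0.00102). The S phase entry genes were divided, with 2 of 3 called higher. Ccne1, a cyclin partner of Cdk2 at the start of S phase, was the only 1 of the 41 genes whose HFD libraries all lay above the highest SD library, at 3.6, 6.66 and 8.81 CPM against 1.48, 2.37 and 3.23 CPM in SD libraries (log2 fold change 1.43, SE 0.31, adjusted p = 8.45e-04). Its paralogue Ccne2 was at 1.54, 3.13 and 5.74 CPM in HFD libraries and 2.31, 3.06 and 4.82 CPM in SD libraries, with near-identical medians (log2 difference −0.02, SE 0.25, adjusted p = 0.955).

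On the mitotic side, the 8 kinases, cyclins and Foxm1 had the highest median of the larger roles, 2.26 on the log2 scale. Cdk1, the kinase that starts mitosis, was at 1.76, 13.5 and 28.5 CPM in HFD libraries, against 1.38, 3.22 and 3.82 CPM in SD libraries. It exceeded the highest SD library in 9 of 10 HFD libraries (log2 fold change 2.28, SE 0.45, adjusted p = 3.88e-04). Ccnb1, the cyclin bound to Cdk1 in mitosis, had the highest log2 fold change of all 41 genes, 2.74 (SE 0.64, adjusted p = 0.00144).

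The 9 spindle and kinetochore genes had a median of 1.83 and the 6 checkpoint and mitotic exit genes a median of 1.92 (log2 fold change), with all 15 called. Kif20a, a kinesin of the late spindle, was at 1.7, 7.25 and 9.87 CPM in HFD libraries, against 1.07, 2.21 and 3.28 CPM in SD libraries (log2 fold change 1.58, SE 0.36, adjusted p = 0.00109). Espl1, the protease that cuts cohesin at anaphase, was at 2.06, 11.7 and 16.3 CPM in HFD libraries, against 1.54, 2.24 and 5.39 CPM in SD libraries (log2 fold change 1.86, SE 0.41, adjusted p = 0.00101). For both, 8 of 10 HFD libraries were above the SD range.

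Per transcript length, the median level in HFD tissue ran from 0.632 FPKM (fragments scaled to gene length and library size) for Cenpf to 26.3 FPKM for Pcna. Mcm6 (12.0 FPKM), E2f1 (11.1 FPKM), Mcm3 (9.8 FPKM) and Mcm5 (7.76 FPKM) followed Pcna, so the 5 most abundant genes by this measure were all replication genes. Mki67 had a median of 7.19 FPKM in HFD libraries and 0.946 FPKM in SD libraries.

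The diet difference was unequal between the 2 library sets. In the set that holds 5 HFD and 2 SD libraries, 13 replication and 25 mitotic genes were called higher, where 17.5% of the genes tested in that set were. In the set that holds 5 HFD libraries, library 8 among them, and 5 SD libraries, 0 and 0 were called, where 0.925% of all genes were, with medians of 0.91 and 1.33 on the log2 scale against 1.64 and 3.03 in the first set. Leaving HFD library 8 out of the second set gave 4 replication and 13 mitotic calls, where 3.03% of all genes were called higher. That fit was added after the values were seen. Library 8 was low in these same genes, so the calls without it are a description and add no support. With the set as a term in the fit of all libraries, 14 and 24 were called. Without HFD library 8, or any other single library, the counts in the fit of all libraries were 14 and 25, and they were 14 and 25 without the 4 libraries that held epithelial transcripts.

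**Figure D1:**
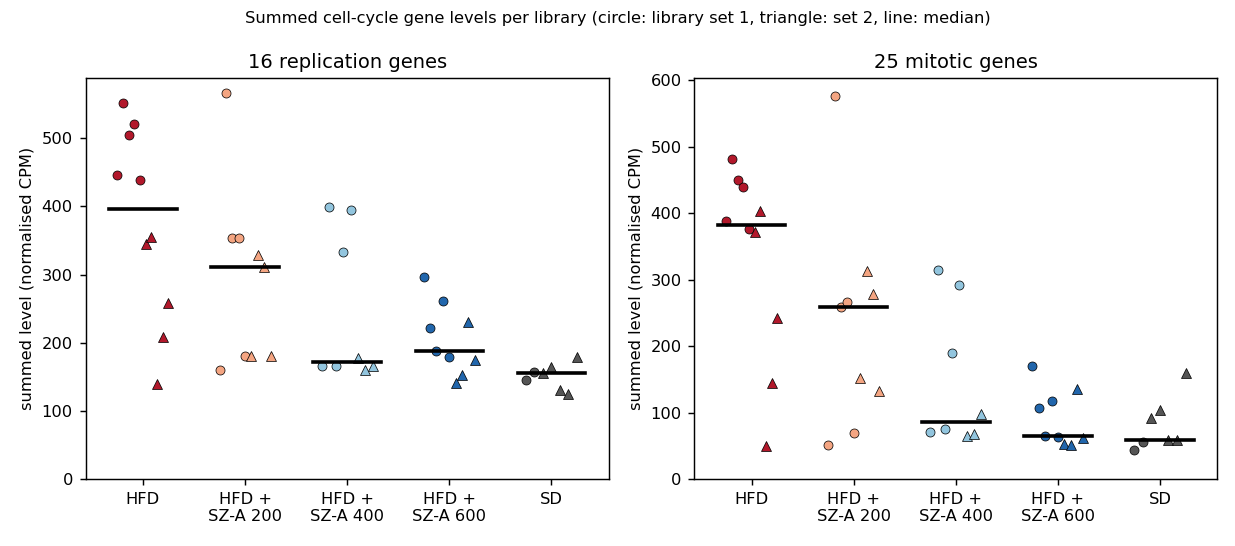
Summed normalised CPM of the 16 replication genes and of the 25 mitotic genes in each library, by group (HFD, SZ-A 200, 400 and 600 mg/kg/day, SD); circles and triangles are the 2 library sets and the line is the group median. The mitotic sum has a median of 383 CPM in HFD, 260, 86.5 and 65.1 CPM at the rising SZ-A doses, and 59.0 CPM in SD, with HFD library 8 at 49.7 CPM.

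SZ-A at 200 mg/kg/day left no gene of the 41 called lower than in HFD by edgeR's quasi-likelihood test, where 0% of all genes were. At an unadjusted p under 0.05 the count was also 0, where 2.64% of all genes were lower. DESeq2 and limma on FPKM also called 0, and limma with voom called 1 mitotic gene. The median log2 difference was −0.31 over the replication genes and −0.53 over the mitotic genes. Mki67 was at 6.61, 46.2 and 108 CPM (lowest, median, highest) in SZ-A 200 libraries, against 5.45, 74.3 and 93.7 CPM in HFD libraries (log2 difference −0.50, SE 0.47, adjusted p = 0.862). SZ-A 200 libraries 1 and 5 were the low ones, with mitotic sums of 51.9 and 69.6 CPM, while library 2 reached 576 CPM, above every HFD library.

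At 400 mg/kg/day, 0 replication genes and 1 mitotic gene were called lower than in HFD, where 0.406% of all genes were. The gene was Foxm1, the transcription factor that drives G2 and M phase genes, at 2.0, 5.14 and 10.3 CPM in SZ-A 400 libraries, against 4.06, 14.4 and 16.4 CPM in HFD libraries; 3 of 8 SZ-A 400 libraries were below the HFD range. Its log2 fold change was −1.30 (SE 0.36, adjusted p = 0.0366). The next in order were the late spindle genes Kif23 (−1.18, SE 0.35, adjusted p = 0.0575) and Kif20a (−0.99, SE 0.33, adjusted p = 0.0954), neither called. At an unadjusted p under 0.05, 5 replication and all 25 mitotic genes were lower, where 7.07% of all genes were.

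The SZ-A 400 libraries fell into high and low ones. Libraries 2, 4 and 5 had mitotic sums of 315, 191 and 292 CPM, and the other 5 had 65.5 to 97.8 CPM. Among those 5 were libraries 3 and 6, which held epithelial transcripts. Mki67 followed, at 56.1, 28.2 and 50.7 CPM in libraries 2, 4 and 5 and at 5.64 to 15.8 CPM in the others. The count of mitotic genes called at this dose rested on single libraries: it was 13 without SZ-A 400 library 2, 8 without HFD library 8 and 5 without SZ-A 400 library 5, and between 0 and 13 over all libraries left out in turn. Without the 4 libraries that held epithelial transcripts it was 0.

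At 600 mg/kg/day, 35 of the 41 genes were called lower than in HFD, 10 of 16 replication genes and 25 of 25 mitotic genes, where 6.47% of all genes were. The median log2 fold change was −0.83 over the replication genes and −1.79 over the mitotic genes, against 0.06 over all genes. Called genes were 1.37- to 3.67-fold lower on the replication side and 2.35- to 5.18-fold lower on the mitotic side. The comparisons of HFD with SD and of SZ-A 600 with HFD share the HFD libraries, so their values for a gene are not independent.

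Mki67 was at 5.59, 9.34 and 31.0 CPM in SZ-A 600 libraries, against 5.45, 74.3 and 93.7 CPM in HFD libraries. Because of HFD library 8 no SZ-A 600 library lay below the HFD range, yet the SZ-A 600 median was near the bottom of it. The log2 fold change was −2.19 (SE 0.50, adjusted p = 0.00848), 4.55-fold lower. Mcm5 was at 4.13, 7.4 and 13.3 CPM in SZ-A 600 libraries, against 3.0, 31.7 and 40.8 CPM in HFD libraries (log2 fold change −1.80, SE 0.40, adjusted p = 0.00764).

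Foxm1 had the smallest p of the 41 genes at this dose, with 1.99, 2.61 and 5.28 CPM in SZ-A 600 libraries against 4.06, 14.4 and 16.4 CPM in HFD libraries (log2 fold change −2.03, SE 0.35, adjusted p = 0.00128). For Foxm1, 7 of 9 SZ-A 600 libraries were below the lowest HFD library. Kif23, which bundles the central spindle, was below it in 8 of 9, at 1.0, 2.37 and 6.73 CPM in SZ-A 600 libraries against 4.37, 10.7 and 14.6 CPM in HFD libraries (log2 fold change −1.68, SE 0.35, adjusted p = 0.00541). Prc1, its partner in the central spindle, was at 1.08, 2.45 and 4.95 CPM in SZ-A 600 libraries, against 1.79, 10.7 and 13.3 CPM in HFD libraries (log2 fold change −1.79, SE 0.37, adjusted p = 0.00563).

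Plk1, a kinase of mitotic entry and spindle assembly, was at 0.664, 1.98 and 4.07 CPM in SZ-A 600 libraries, against 3.12, 7.52 and 9.82 CPM in HFD libraries. It too was below every HFD library in 8 of 9 SZ-A 600 libraries (log2 fold change −1.83, SE 0.41, adjusted p = 0.00788). Cdc20, the activator of the anaphase-promoting complex, was at 1.3, 3.02 and 4.42 CPM in SZ-A 600 libraries, against 1.03, 9.25 and 12.3 CPM in HFD libraries (log2 fold change −1.57, SE 0.35, adjusted p = 0.00752). For Cdc20 no SZ-A 600 library was below HFD library 8, which was the lowest of the HFD group.

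By role, every mitotic role had all its members called lower at 600 mg/kg/day. On the replication side the counts were 5 of 6 helicase subunits, 3 of 4 licensing and fork genes, 2 of 3 nucleotide supply genes and 0 of 3 S phase entry genes. The 6 genes not called were Mcm7 (log2 difference −0.21, adjusted p = 0.162), Pcna (−0.64, adjusted p = 0.204), Tyms (−0.67, adjusted p = 0.0597), Ccne1 (−0.81, adjusted p = 0.0501), Ccne2 (−0.23, adjusted p = 0.539) and E2f1, the founding E2F factor (−0.52, adjusted p = 0.197). Of these, Pcna, Tyms, Ccne1 and E2f1 were among the genes called higher in HFD than in SD. The replication count moved between 7 and 12 when single libraries were left out, and the mitotic count was 25 each time.

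**Figure D2:**
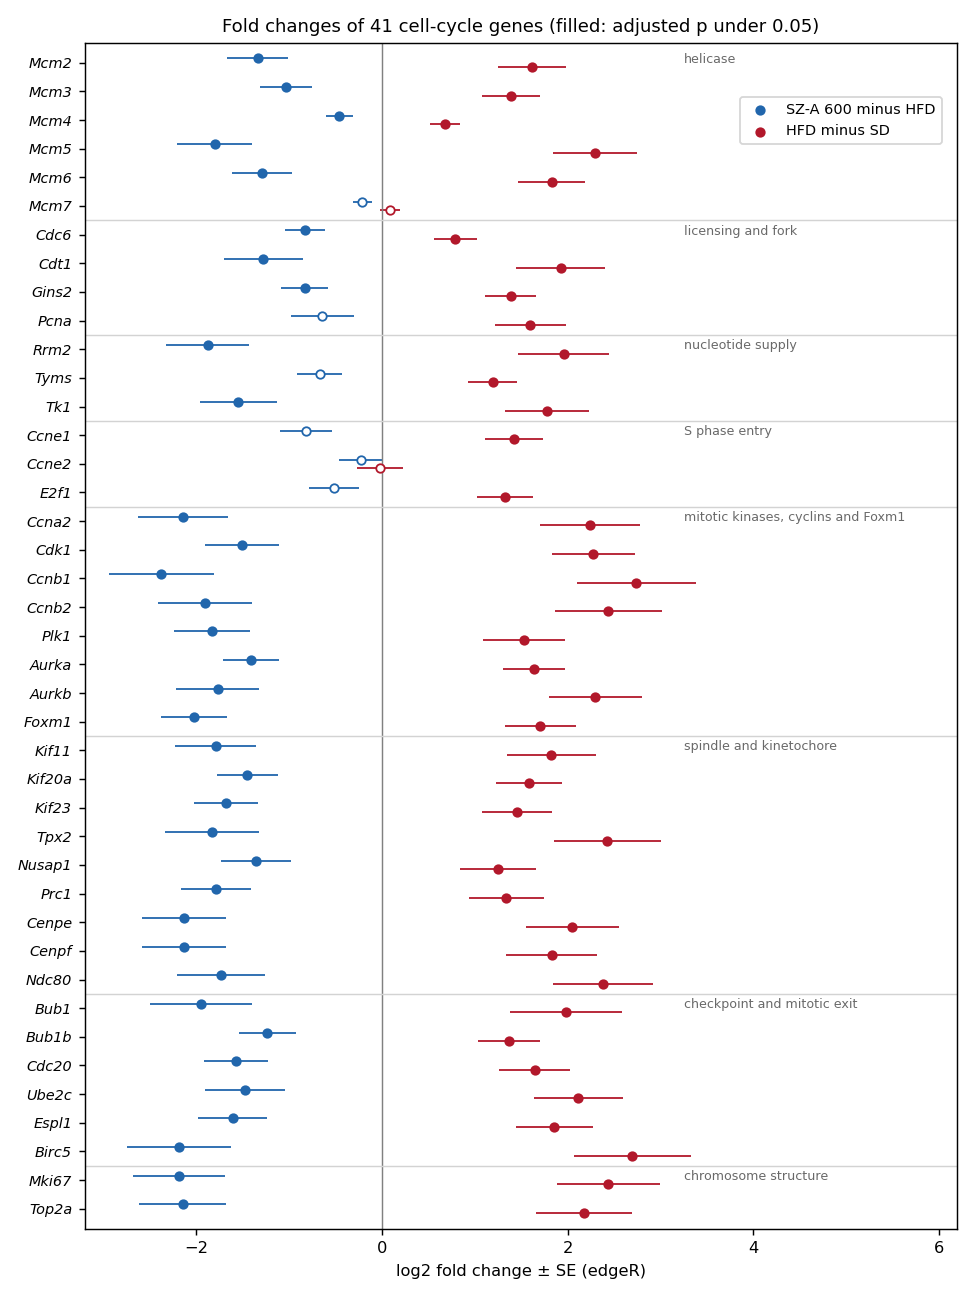
Log2 fold change with its standard error for each of the 41 genes, ordered by role, for SZ-A 600 minus HFD and for HFD minus SD; filled points have an adjusted p under 0.05. All 25 mitotic genes are filled in both comparisons, and Mcm7 and Ccne2 lie near 0 in both.

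By library set, SZ-A 600 against HFD gave 12 replication and 25 mitotic genes lower in the first set (5 and 5 libraries; medians −0.99 and −2.02), where 12.8% of all genes were. The second set (4 and 5 libraries) gave 0 and 0, with medians of −0.69 and −1.58, and 0 and 0 without HFD library 8; 0% of all genes were called lower in either case. Without the 4 libraries that held epithelial transcripts, 9 replication and 25 mitotic genes were called.

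Over the 4 dose levels, a trend across the 36 high-fat libraries was called lower for 11 of 16 replication and 25 of 25 mitotic genes, where 7.75% of 19328 genes tested were. The median slope per 200 mg/kg/day was −0.26 on the log2 scale for replication and −0.61 for mitosis. Foxm1 had the smallest p (slope −0.67, SE 0.11, adjusted p = 3.08e-04), followed by the kinetochore gene Cenpf (−0.70, SE 0.13, adjusted p = 0.0014) and Kif23 (−0.57, SE 0.11, adjusted p = 0.00154). The slope was −0.75 for Mki67 (SE 0.16, adjusted p = 0.00353) and −0.57 for Mcm5 (SE 0.13, adjusted p = 0.00455). Cenpf itself was at 0.666, 9.97 and 12.0 CPM (lowest, median, highest) in HFD, 0.894, 5.48 and 11.4 CPM at SZ-A 200, 1.5, 2.82 and 7.09 CPM at SZ-A 400 and 0.684, 1.7 and 3.13 CPM at SZ-A 600. Within the second library set the trend gave 0 and 0 calls, where 0% of all genes were called lower. The trend uses the same libraries as the comparisons with HFD and adds no independent support to them.

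Set against SD, the number of the 41 genes called higher was 31 at SZ-A 200 (13 replication, 18 mitotic; 10.8% of all genes), 5 at SZ-A 400 (4 replication, 1 mitotic; 8.29%) and 0 at SZ-A 600 (2.01%). These 3 comparisons share the SD libraries with the diet comparison. The 5 genes at SZ-A 400 were Gins2 (log2 fold change 1.11, adjusted p = 0.0124), Mcm2 (1.10, adjusted p = 0.0478), Tyms (0.82, adjusted p = 0.0454), Ccne1 (0.99, adjusted p = 0.0382) and Cdk1 (1.35, adjusted p = 0.0433). At SZ-A 600, edgeR's quasi-likelihood test gave 3 higher genes at an unadjusted p under 0.05 (12.9% of all genes), all on the replication side: Gins2 (0.55), Pcna (0.96) and E2f1 (0.81, log2 difference). DESeq2 called 0 there and limma with voom 7. The counts moved with single libraries, to 7 at SZ-A 200 without SZ-A 200 library 2 and to 8 at SZ-A 400 without SZ-A 400 library 7, and limma with voom called 34 at SZ-A 400. The median difference from SD at SZ-A 600 was 0.42 for replication and 0.14 for mitosis on the log2 scale. For Mki67 it was 0.25, with a 95% interval of −0.77 to 1.28, which does not show equality with SD.

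The balance of both sides was taken in each library as the mean log2 CPM of the replication genes minus that of the mitotic genes. Its lowest, median and highest values were 0.43, 0.63 and 1.79 in HFD, 0.48, 0.83 and 1.87 at SZ-A 200, 0.70, 1.42 and 1.84 at SZ-A 400, 1.05, 1.79 and 1.90 at SZ-A 600 and 0.71, 1.50 and 1.98 in SD. In 8 of 10 HFD libraries the balance lay below every SD library, and in 9 of 10 below every SZ-A 600 library. The exception was HFD library 8; the other 9 HFD libraries spanned 0.43 to 0.92. The balance is a score over the chosen genes and carries no test.

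**Figure D3:**
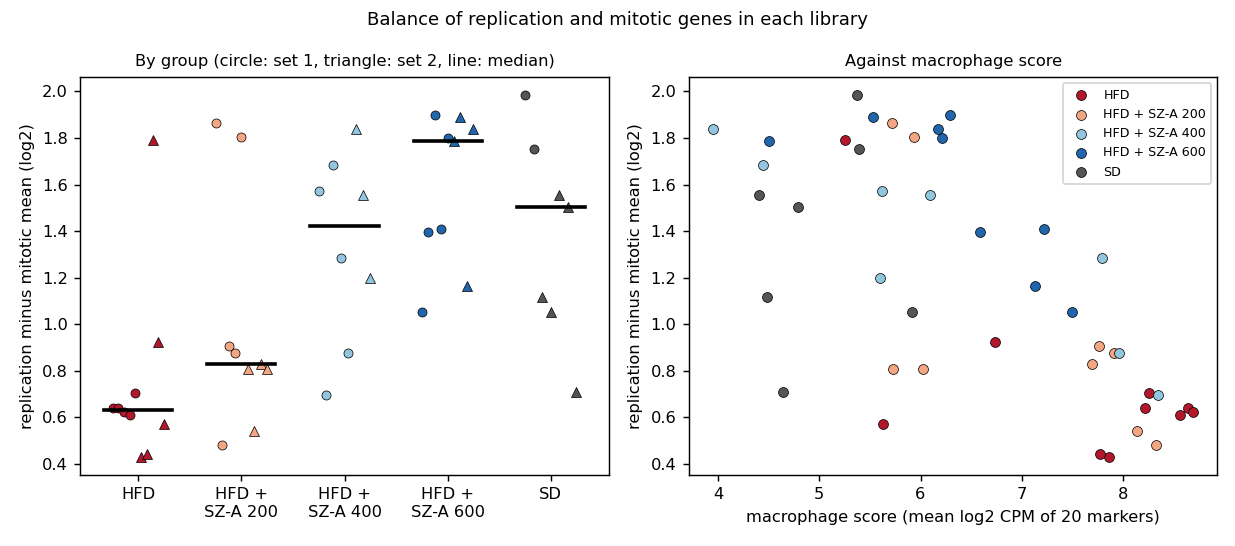
Replication minus mitotic mean log2 CPM in each library, by group and against the macrophage score. HFD libraries other than library 8 lie between 0.43 and 0.92 and SZ-A 600 libraries between 1.05 and 1.90.

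Within the high-fat libraries the mitotic genes moved together closely and the replication genes less so. Across the 36 libraries, the median pairwise Pearson r of log2 CPM was 0.905 among mitotic genes (0.718 to 0.985), 0.692 among replication genes (0.295 to 0.956) and 0.801 between both sides. These libraries share the diet, and doses differ between them, so the r values are descriptions. Top2a, Ccna2 and Mki67 had the highest median r with the other genes (0.929, 0.925 and 0.919). Mcm7, Ccne2 and E2f1 had the lowest (0.428, 0.480 and 0.571).

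Macrophage content was followed by 20 macrophage markers, none of them among the 41 genes. All 20 were tested, and their summed level was 1329, 10479 and 16135 CPM (lowest, median, highest) in HFD, 1972, 7913 and 13163 CPM at SZ-A 200, 472, 2255 and 14665 CPM at SZ-A 400, 773, 3274 and 8398 CPM at SZ-A 600, and 748, 933 and 2021 CPM in SD. Of the 20, 18 were higher in HFD than in SD, where 18.4% of all genes were, and 10 were lower at SZ-A 600 than in HFD, where 6.47% were. None was called lower at SZ-A 200 or 400, where 0% and 0.406% of all genes were. HFD library 8 had a macrophage score (mean log2 CPM of the 20 markers) of 5.25, against a median of 8.04 in HFD, and Adgre1, the gene of the F4/80 antigen, at 8.12 CPM.

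Within groups, cell-cycle genes rose with the macrophage score. In a fit over all 43 libraries with group and score, 15 of 16 replication and 25 of 25 mitotic genes had a positive slope that was called, where 23.5% of all genes did and 29.1% had a called negative one. The median slope, in log2 units per log2 unit of score, was 0.35 for replication and 0.56 for mitosis. The slope of Mki67 was 0.77 (SE 0.09, adjusted p = 2.46e-09) and that of Mcm5 was 0.57 (SE 0.07, adjusted p = 4.42e-08). Pcna (0.59, SE 0.05), Mcm6 (0.55, SE 0.05) and Mcm3 (0.47, SE 0.04) had the smallest p values of the 41. Mcm7 was the exception, with a slope of 0.03 (SE 0.03, adjusted p = 0.347). In the second library set alone the slope was called for 4 replication and 8 mitotic genes (8.82% of all genes), and without the 4 libraries that held epithelial transcripts for 15 and 25 (27.9%).

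Over the 36 high-fat libraries, log2 CPM of Mki67 correlated with the score at Pearson r = 0.879 and Spearman rho = 0.864 (permutation p = 1e-05 for each, adjusted p = 1e-05 over 6 relations), and Mcm5 at r = 0.849 and rho = 0.865 (permutation p = 1e-05 for each). The value 1e-05 is the smallest that 100000 permutations can give. Libraries were permuted across HFD and the SZ-A groups, here and within each library set. These p-values therefore do not separate differences between groups from the tie within them. Without the 2 libraries farthest from the median score, r was 0.893 for Mki67 and 0.904 for Mcm5. In the first library set (n = 20), r was 0.906 and rho 0.929 for Mki67, and r was 0.948 and rho 0.931 for Mcm5 (permutation p = 1e-05 for each); without the 2 farthest libraries r was 0.970 and 0.954. In the second set (n = 16), Mki67 had r = 0.867 (permutation p = 4e-05, adjusted p = 5e-05) and rho = 0.826 (permutation p = 2e-04, also 2e-04 adjusted). Mcm5 there had r = 0.684 (permutation p = 0.0039) and rho = 0.703 (permutation p = 0.0029), both unchanged by adjustment; without the 2 farthest libraries r was 0.849 for Mki67 and 0.842 for Mcm5.

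**Figure D4:**
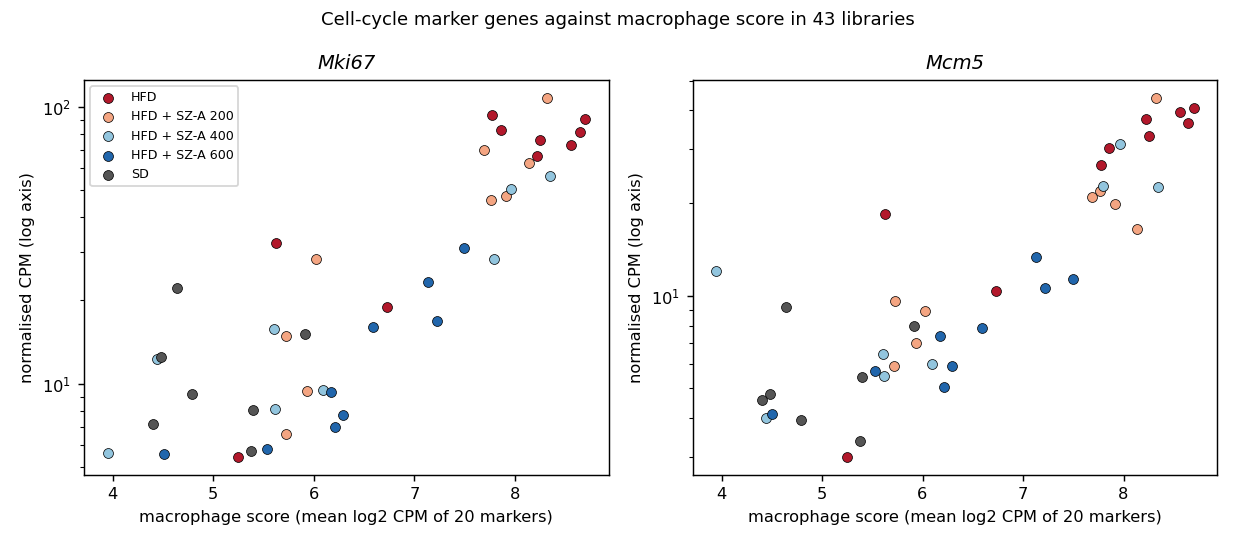
CPM of Mki67 and Mcm5 on a log axis against the macrophage score in each of the 43 libraries, coloured by group. HFD libraries other than 8, 9 and 10 sit at scores of 7.77 and more with high levels of both genes, and HFD library 8 sits at a score of 5.25 with 5.45 CPM of Mki67 and 3.0 CPM of Mcm5.

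Libraries with like scores were not always alike in mitotic level. HFD library 10 had a score of 5.63 and a mitotic sum of 242 CPM, whereas SZ-A 400 library 1 had a score of 5.62 and a mitotic sum of 71.1 CPM. The pair was chosen after the values were seen. Over the 36 libraries, r with the score ran from 0.727 (Foxm1) to 0.892 (Aurkb, the kinase of the chromosomal passenger complex) among mitotic genes. Among replication genes it ran from 0.312 (Mcm7) through 0.518 (Ccne2) to 0.927 (Mcm3 and Pcna).

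The tie was not specific to the macrophage list. A score of 12 preadipocyte and fibroblast markers, which correlated with the macrophage score at r = 0.913 over the 36 high-fat libraries, gave 14 replication and 25 mitotic genes with called positive slopes when it took the place of the macrophage score (21.7% of all genes). With both scores in one fit, the macrophage slope was called positive for 6 replication and 7 mitotic genes (8.39% of all genes). The fibroblast slope was called positive for 0 and 0 (6.18% of all genes). This joint fit and the one with the adipocyte score below were added after the values were seen. The fibroblast markers summed to medians of 7430 CPM in HFD, 2663 CPM at SZ-A 600 and 2030 CPM in SD.

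Other cell type scores in its place gave smaller counts. A T cell score gave 5 and 7 called positive slopes (6.13% of all genes) and a B and plasma cell score gave 0 and 0 (2.18%). Endothelial and mature adipocyte scores gave no positive slopes, and negative ones for 7 and 6 genes and for 7 and 19 genes (17.7% and 25.6% of all genes had negative slopes). Together with the adipocyte score, the macrophage slope stayed positive and called for 15 and 25 genes (27.2% of all genes). The adipocyte slope in that fit was called negative for 7 and 11 genes (28.5% of all genes) and positive for 1 and 0 (20.1%). The adipocyte markers summed to medians of 31235 CPM in HFD, 60918 CPM at SZ-A 600 and 60138 CPM in SD.

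With the macrophage score as a term, no gene of the 41 was called higher in HFD than in SD by edgeR's quasi-likelihood test, where 0.0643% of all genes were, and DESeq2 and limma called 0 as well. At an unadjusted p under 0.05, 1 replication and 0 mitotic genes were higher, where 5.86% of all genes were. The median log2 difference was 0.33 for replication and 0.35 for mitosis, and its sign was not stable: without the 4 libraries that held epithelial transcripts the medians were −0.08 and 0.04. For Mki67 it was 0.18 (SE 0.38, adjusted p = 0.942) and for Mcm5 0.64 (SE 0.33, adjusted p = 0.502). Scores overlapped little between the diets, since 8 of 10 HFD libraries were above the highest SD score, so diet and macrophage content can hardly be told apart in this fit.

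Between SZ-A 600 and HFD with the score as a term, 1 of 16 replication and 8 of 25 mitotic genes were called lower, where 0.846% of all genes were. The medians were −0.44 and −1.02 on the log2 scale. Scores overlapped little here too, since 7 of 10 HFD libraries were above the highest SZ-A 600 score. Dose and macrophage content can therefore hardly be told apart in this fit either. Comparisons of the SZ-A doses with HFD that include the score as a term were not planned beforehand. The replication gene was Mcm5 (−1.01, SE 0.27, adjusted p = 0.0466). The mitotic genes were Foxm1 (−1.60, adjusted p = 0.0052), Kif23 (adjusted p = 0.0205), the kinetochore motor Cenpe (adjusted p = 0.0275), Top2a (adjusted p = 0.0287), Mki67 (−1.23, SE 0.31, adjusted p = 0.0324), Aurka (adjusted p = 0.0324), Ccnb1 (adjusted p = 0.0382) and Cenpf (adjusted p = 0.0389).

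At an unadjusted p under 0.05, 8 replication and 25 mitotic genes were lower in that fit, where 8.01% of all genes were. The calls rested on single libraries, with 0 to 3 replication and 0 to 16 mitotic calls when libraries were left out in turn. There were 16 mitotic calls without HFD library 8, 15 without HFD library 9 and 0 without HFD library 10. Without the 4 libraries that held epithelial transcripts there were 3 replication and 17 mitotic calls (2.94% of all genes), and in the second library set 0 and 0 (0%). At SZ-A 200 and 400 no gene of the 41 was called lower with the score as a term by edgeR's quasi-likelihood test, DESeq2 or limma (0% and 0.0148% of all genes). At an unadjusted p under 0.05, 1 replication and 1 mitotic gene were lower at SZ-A 200 (3% of all genes), and 0 and 4 at SZ-A 400 (3.78%).

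**Figure D5:**
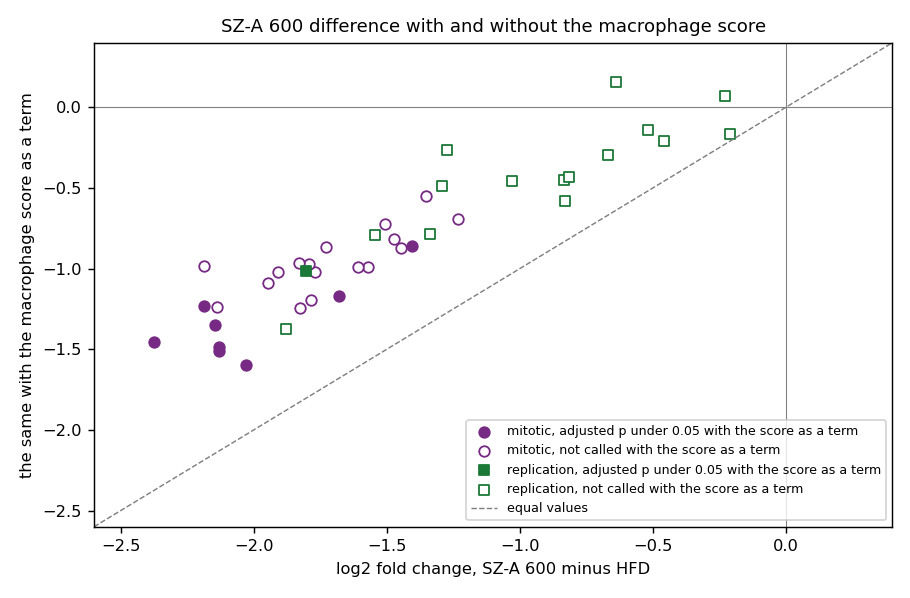
Log2 fold change of each of the 41 genes for SZ-A 600 minus HFD, without the macrophage score in the fit (horizontal) and with it (vertical); circles are mitotic and squares replication genes, filled where the adjusted p with the score is under 0.05, and the dashed line marks equal values. The median of the 25 mitotic genes is −1.79 without the score and −1.02 with it, and that of the 16 replication genes −0.83 and −0.44.

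Genes outside the 41 that belong to the same machinery were tested in the same fits. Of 35 other mitotic genes, 30 were higher in HFD than in SD, where 18.4% of all genes were. They were led by the kinetochore gene Spc25 (log2 fold change 2.95, SE 0.53, adjusted p = 2.33e-04) and Racgap1 of the central spindle (2.13, SE 0.39, adjusted p = 2.84e-04). At SZ-A 600, 27 of the 35 were lower than in HFD and 1 was higher, where 6.47% of all genes were lower and 5.12% higher. Of 30 other replication genes, 21 were higher and 1 lower in HFD than in SD, where 18.4% of all genes were higher and 13.3% lower. The higher ones were led by the clamp loader gene Rfc3 (1.01, SE 0.22, adjusted p = 7.00e-04) and the primase gene Prim2 (1.18, SE 0.25, adjusted p = 7.19e-04). At SZ-A 600, 12 of the 30 were lower than in HFD, where 6.47% of all genes were.

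The genes that hold cells back from division behaved differently from one another. Cdkn2a, which encodes the inhibitors p16 and p19Arf and is a common marker of senescence, was at 0.818, 1.94 and 4.35 CPM in HFD libraries, against 0.116, 0.358 and 0.614 CPM in SD libraries. Every HFD library was above every SD library (log2 fold change 2.65, SE 0.49, adjusted p = 2.85e-04). Cdkn2b (0.80, adjusted p = 0.0145) and Cdkn2d (0.64, adjusted p = 0.00869) were also higher, and Cdkn1a (−0.07, adjusted p = 0.876), Cdkn1b (−0.37, adjusted p = 0.0684), Cdkn1c (−0.07, adjusted p = 0.886) and Cdkn2c (0.18, adjusted p = 0.583) were not called.

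Against HFD, the only one of these 7 inhibitors called at SZ-A 600 was Cdkn1a, which encodes p21. It was at 13.3, 59.8 and 86.3 CPM in SZ-A 600 libraries, against 99.9, 127 and 212 CPM in HFD libraries, with no overlap (log2 fold change −1.37, SE 0.29, adjusted p = 0.0062). Cdkn2a had a log2 difference of −0.79 in that comparison (SE 0.41, adjusted p = 0.194).

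Of 6 G1 cyclins and kinases, Cdk4 was higher (log2 fold change 0.57, SE 0.18, adjusted p = 0.0153) and Cdk2 lower (−0.52, SE 0.18, adjusted p = 0.027) in HFD than in SD. These counts are near the shares over all genes, 18.4% higher and 13.3% lower. None of the 6 was called between SZ-A 600 and HFD, where 6.47% of all genes were lower and 5.12% higher. Among 17 E2F, pocket protein and DREAM genes, 5 were higher and 2 lower in HFD than in SD, where 18.4% and 13.3% of all genes were, led by E2f8 (2.46, SE 0.62, adjusted p = 0.00279) and E2f6 (0.51, SE 0.13, adjusted p = 0.00321). At SZ-A 600, 5 of the 17 were lower than in HFD (E2f2, E2f4, E2f8, Tfdp1 and Mybl2) and Lin52 was higher, where 6.47% and 5.12% of all genes were.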

How the data were processed

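RNA of epididymal white adipose tissue from male mice was sequenced as strand-specific poly(A) libraries, read in pairs of 150 bases, per the labels' protocols. The authors deposited 1 table of raw counts per gene and 1 table of FPKM, per the file headers. The build was mm10, per the submitters' processing notes, with aligner and counter not given in the sources used here. Both tables hold 43 libraries, grouped by the diet and dose in their labels. Genes were kept with edgeR's filterByExpr (20218 of 56748).

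Counts were scaled by TMM and tested with edgeR 4.0.16 (robust quasi-likelihood, Benjamini-Hochberg over all genes tested, adjusted p under 0.05) in R 4.3.3, in a single fit with a mean per group. The dose trend used the 36 high-fat libraries. The macrophage score is the mean log2 CPM (prior count 2) of 20 markers and entered a fit together with group. Levels in the text are TMM-scaled CPM. FPKM served for levels per length and, with a pseudocount of 1 or 0.1, for limma 3.58.1. DESeq2 1.42.0, limma with voom, other scalings, no filter, library sets and left-out libraries were alternatives. Correlations used permutations in scipy 1.17.1 with Python 3.11.15. The scripts were tested on simulated data.

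The members and lists were chosen with earlier results of these data known. Every member could be named. Given in full were Mki67, Mcm5, the member of each role with the smallest p for diet, members that departed from their role, and the 3 smallest p values per dose comparison and trend; from other lists, the 2 smallest p values for diet and every CDK inhibitor. Promoter windows come from RefSeq (GRCm38.p6). Library numbers were not taken as pairs. No 2 libraries were identical.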

Additional observations from a re-analysis of the deposited data

Results flagged for a closer look

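HFD library 8 was far from the other 9 HFD libraries in 6 measures, by Dixon's test within the group, below them in 5 and above them in 1, the balance. Its mean log2 CPM over the 25 mitotic genes was 0.60, where the nearest HFD library had 2.33. Its replication minus mitotic balance was 1.79, where the nearest had 0.92. On the log2 CPM scale, Mcm5 was at 1.61 (nearest 3.38), Cdk1 at 0.86 (nearest 2.79), Cdc20 at 0.11 (nearest 2.14) and Cenpf at −0.48 (nearest 2.32). The same library had a macrophage score of 5.25, against 5.63 to 8.70 in the other HFD libraries, and its part in these values was not tested. In all, 100 such tests were run and 6 passed, where chance alone gives about 5. All 6 fell on HFD library 8, in measures that overlap or correlate with one another. The expected number therefore cannot decide whether the departure of this library is chance.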

How the results depend on the processing

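The diet difference held under most alternatives. Fits of the second library set without HFD library 8 were added after the values were seen. Within the second library set alone, replication and mitotic counts for HFD against SD were 0 and 0 (4 and 13 without HFD library 8), those for SZ-A 600 against HFD 0 and 0 with or without library 8, and those for the trend 0 and 0 likewise; fewer libraries enter each. An adjusted p under 0.01 left 2 replication and 14 mitotic genes at SZ-A 600 and 4 replication genes in the trend. Leaving out each library in turn gave 14 to 14 and 25 to 25 calls for diet, 7 to 12 and 25 to 25 at SZ-A 600, 8 to 12 and 25 to 25 for the trend, and 0 to 0 at SZ-A 200.

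At SZ-A 200, limma with voom called 1 mitotic gene. At SZ-A 400 the mitotic count of 1 became 0 at an adjusted p under 0.01, in either library set (also without HFD library 8), on FPKM with either pseudocount, with only the groups compared, and without the 4 libraries with epithelial transcripts (also with the set as a term). It became 2 with upper-quartile scaling, 4 with voom, 5 with DESeq2 and 5 with the set as a term, where 1 replication gene was called. Left-out libraries gave 0 to 1 replication and 0 to 13 mitotic calls.

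Against SD, the 31 genes at SZ-A 200 became 0 in the second set (0 without HFD library 8), 2 at an adjusted p under 0.01, 5 in the first set, 8 and 11 on FPKM with a pseudocount of 1 and of 0.1, 18 with the set as a term, 20 with no filter, and 7 to 35 with a library left out (7 without SZ-A 200 library 2). The 5 genes at SZ-A 400 became 0 at an adjusted p under 0.01, in the second set (0 without HFD library 8) and with only the groups compared, 1 on FPKM with either pseudocount, with no filter, with upper-quartile scaling and with the set as a term, 2 with DESeq2 size factors, 34 with voom, 9 without the 4 libraries (2 with the set as a term as well), and 1 to 8 with a library left out (8 without SZ-A 400 library 7). The 0 genes at SZ-A 600 became 1 in the first set, 1 without the 4 libraries (1 with the set as a term), 2 with only the groups compared, 7 with voom, and 0 to 1 with a library left out (1 without SZ-A 600 library 6).

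Positive macrophage slopes, 15 and 25, became 0 and 0 with a B cell, an endothelial or an adipocyte score in its place, 5 and 7 with a T cell score, 6 and 7 beside a fibroblast score, 4 and 8 in the second set and 4 and 3 there without HFD library 8, where the Gins2 slope was −0.027. Left-out libraries gave 14 to 15 and 25 to 25. With the score as a term, 1 replication gene was called for diet with the set as a term. For SZ-A 600, the 8 mitotic genes became 0 in the second set (0 without HFD library 8), 1 at an adjusted p under 0.01, 2 in the first set, 4 with no filter, 14 on FPKM with a pseudocount of 1, 15 with DESeq2, 17 without the 4 libraries and 24 with a lipid-associated macrophage score. The 1 replication gene became 0 with the high-fat libraries only, at an adjusted p under 0.01, in the second set (0 without HFD library 8), on FPKM with a pseudocount of 0.1 and with no filter, 2 with the set as a term, 3 without the 4 libraries, 4 without them with the set as a term, 4 in the first set, 4 with DESeq2 and 6 with the lipid-associated score. Left-out libraries gave 0 to 3 and 0 to 16, and 0 to 0 for diet, SZ-A 200 and SZ-A 400. The cause of these shifts was not tested.

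A replicate block by library number, a number only, gave 14 and 25 for diet, 3 mitotic genes at SZ-A 400, 12 and 25 at SZ-A 600, and, against SD, 32, 8 and 3 genes at SZ-A 200, 400 and 600; with the score as a term it ended every call at SZ-A 600 (0 and 0). In the block fit with the score, the diet medians were 0.12 for replication and −0.16 for mitosis, in place of 0.33 and 0.35; without the 4 libraries and with the set as a term they were −0.03 and −0.26. Deviations from the group means correlated over 0.1 in 48 of 79 same-number pairs (median 0.197) and in 238 of 658 other pairs (median −0.035). Of the 43 libraries, 10 correlated best with their own number, so same-number libraries leaned together without every pair doing so. The library sets follow the numbering: in each high-fat group libraries 1 to 5 were in the first set and the later ones in the second. Same-number pairs of these groups were thus same-set pairs, and the part of the set in this lean was not tested. Upper-quartile scaling moved the all-gene median for diet to −0.17, with 2959 genes higher and 3501 lower in place of 3725 and 2689, and turned no direction of the replication or mitotic median. Of the values of single genes under alternatives, 163 lost their call, 84 gained one and 1 reversed. Depth limits the rarest genes: Bub1 had as few as 2 raw counts in a library.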
